A study of Mus musculus with 12 samples.

Results

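Collagen folding and hydroxylation was examined through 10 genes of 18996 in the count table, taken by gene symbol: P4ha1, P4ha2, P4ha3, P4hb, Plod1, Plod2, Plod3, Serpinh1, Fkbp10 and Crtap. All 10 were present and all passed the filter on low counts, which kept 14765 genes. The symbols were chosen for function, although earlier results of these data were known. The study, on scarring after spinal surgery, profiled polyadenylated RNA of tissue beside the mouse spine. There were 12 mice in 3 groups of 4. The mice were BALB/c, aged 5 to 7 weeks, and the labels give no sex for a sample. No operation mice gave intact paraspinal soft tissue, SHAM mice had that soft tissue removed with the laminae left in place, and in Laminectomy mice laminae of the thoracolumbar spine were removed. Tissue of both surgical groups was taken on day 7. Its sample titles call it scar tissue, where those of No operation mice name paraspinal soft tissue, so scar presence cannot be told apart from the operation. Total counts ranged from 16802989 to 18077868 per mouse. Values are given as CPM, counts scaled to library size with TMM factors.

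Procollagen chains are modified while they are still unfolded in the endoplasmic reticulum (ER). Prolyl 4-hydroxylase, made of alpha subunits (P4ha genes) and the beta subunit P4hb, hydroxylates prolines so that the triple helix is stable at body temperature, and lysyl hydroxylases (Plod genes) prepare lysines for glycosylation and crosslinking. The chaperone Serpinh1, the prolyl isomerase Fkbp10 and the prolyl 3-hydroxylation partner Crtap then assist folding, and fibroblasts of healing wounds are known for strong use of this machinery.

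Libraries of a group were not alike. SHAM mouse 1 stood apart: its summed CPM over 12 hypoxia-inducible genes was 2065, against 902.9, 839.4 and 658.2 in SHAM mice 2, 3 and 4. The same mouse had the lowest summed skeletal muscle markers of its group, 2266 CPM against 6084, 8439 and 8876. Laminectomy mouse 1 had the highest sum of the 10 genes, 5108 CPM against 3998, 3713 and 3718 in the other Laminectomy mice. It was the highest of its group for 9 of the 10 genes. No operation mouse 1 was the highest of its group for 8 of the 10 genes. It had 2053 CPM of the matrix gene Postn, against 329.7, 189.2 and 99.61 in No operation mice 2, 3 and 4, and 9680 CPM of Col3a1, against 2180, 1517 and 1057. Results were therefore also computed without each mouse.

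Summed over the 10 genes, No operation mice had 2060, 1390, 1716 and 1416 CPM, and SHAM mice had 4062, 4227, 4048 and 3827 CPM. Every surgical mouse lay above every No operation mouse in this sum. Of the 10 genes, 9 were higher in SHAM than in No operation at an adjusted p below 0.05 and a log2 fold change above 0.5 (edgeR quasi-likelihood test, Benjamini-Hochberg adjustment over all genes tested), where 25.7% of all tested genes were called higher. The same number, 9 of 10, was called higher in Laminectomy against No operation, where the share of all tested genes was 24.2%. P4ha1 was the gene not called in either comparison, except in SHAM with library size alone as scaling. For the other 9 genes all 4 surgical mice lay above all 4 No operation mice in both comparisons, a pattern found in 26.7% of tested genes for SHAM and 27% for Laminectomy. The median log2 fold change of the 10 genes was 1.33 in SHAM and 1.22 in Laminectomy, beside -0.00195 and 0.00927 over all tested genes. Both comparisons use the same No operation mice. These are bulk samples, in which more cells of a type and more RNA per cell cannot be told apart. With any 1 of the 12 mice left out, 9 were called in each comparison, at medians of 1.21 to 1.46 in SHAM and 1.11 to 1.32 in Laminectomy, where the highest of each was without No operation mouse 1.

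**Figure D1:**
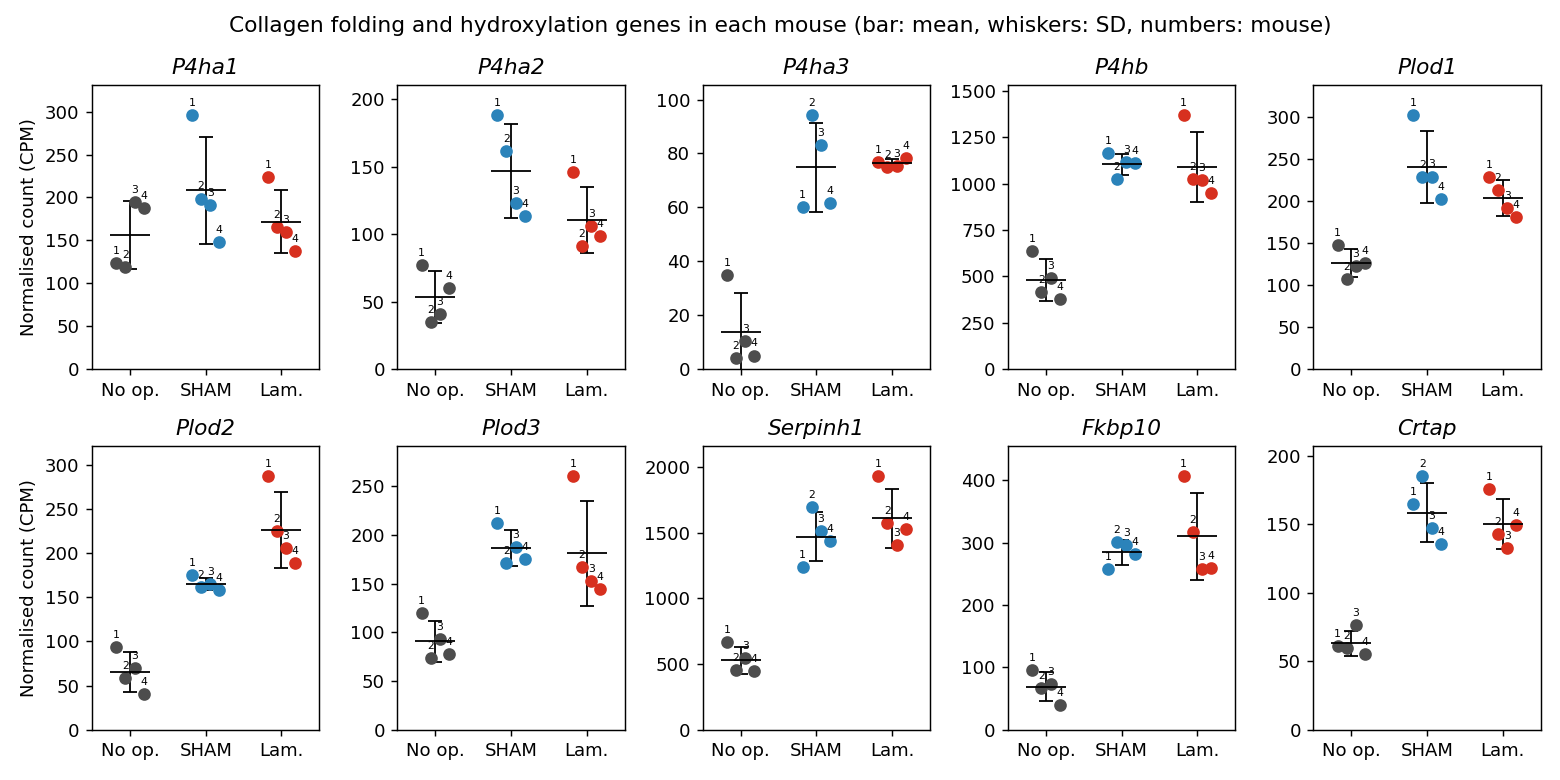
Normalised counts (CPM, vertical axes starting at 0) of the 10 genes in the 4 mice of each group, numbered by mouse; horizontal bars are means and whiskers SDs, and the lower whisker of P4ha3 in No operation is clipped at 0. In 9 panels every surgical mouse lies above every No operation mouse, and in the P4ha1 panel the groups overlap.

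The alpha subunits carry the catalytic site of prolyl 4-hydroxylase. P4ha1 (gene ID 18451, chr10:59323296-59373304, GRCm38) had 124.1, 119.1, 194.2 and 187.7 CPM in the No operation group, 295.8, 198.8, 190.7 and 147.9 CPM in the SHAM group and 224.1, 165.3, 160.2 and 137.6 CPM in the Laminectomy group. The 3 groups overlapped, and the highest SHAM value was that of mouse 1. The log2 fold change against No operation was 0.41 (SE 0.24, adjusted p = 0.152, edgeR) in SHAM and 0.14 (SE 0.24, adjusted p = 0.645, edgeR) in Laminectomy. Without SHAM mouse 1 the SHAM value was 0.20, and without Laminectomy mouse 1 the Laminectomy value was -0.0161. With library size alone as scaling, P4ha1 was called in SHAM at 0.67 (adjusted p = 0.0177, edgeR; range over all alternatives 0.0177 to 0.451). That scaling also moved the median of all genes to 0.253 in SHAM and 0.328 in Laminectomy, and relative to this median P4ha1 was at 0.41 in SHAM.

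P4ha2, an alternative alpha subunit (gene ID 18452, chr11:54100095-54131665), had 77.19, 34.76, 40.56 and 60.07 CPM in the No operation group, 188.2, 162.0, 123.0 and 113.2 CPM in the SHAM group and 146.2, 91.56, 105.9 and 98.94 CPM in the Laminectomy group. No surgical mouse was as low as any unoperated one, and the surgical groups overlapped each other. P4ha2 was 2.76-fold higher in SHAM (log2 fold change 1.46, SE 0.26, adjusted p = 0.000565, edgeR) and 2.08-fold higher in Laminectomy (1.06, SE 0.26, adjusted p = 0.00451, edgeR).

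P4ha3 (gene ID 320452, chr7:100285520-100319699), a further alpha subunit, had 34.94, 4.156, 10.26 and 4.977 CPM in unoperated tissue. SHAM mice had 60.19, 94.15, 83.2 and 61.76 CPM, and Laminectomy mice had 76.87, 74.85, 75.48 and 78.14 CPM. The surgical groups overlapped each other and lay above all No operation mice, of which mouse 1 was the highest. The rise was 5.51-fold in SHAM (log2 fold change 2.46, SE 0.55, adjusted p = 0.00232, edgeR) and 5.63-fold in Laminectomy (2.49, SE 0.55, adjusted p = 0.00234, edgeR). Without No operation mouse 1 the log2 fold changes were 3.53 and 3.56.

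P4hb, the beta subunit, is also protein disulfide isomerase and so serves many secreted proteins. P4hb (gene ID 18453, chr11:120560298-120573253) had 638.3, 414.2, 490.6 and 379.6 CPM in the No operation group, 1166, 1027, 1115 and 1110 CPM in the SHAM group and 1369, 1024, 1021 and 947.7 CPM in the Laminectomy group. Unoperated mice lay below all others. The rise was 2.30-fold in SHAM (log2 fold change 1.20, SE 0.18, adjusted p = 0.000159, edgeR) and 2.27-fold in Laminectomy (1.18, SE 0.18, adjusted p = 0.000208, edgeR).

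The lysyl hydroxylases differ in their substrates, Plod1 acting mainly on helical lysines and Plod2 on telopeptide lysines, the sites of crosslinks. Plod1 (gene ID 18822, chr4:147909753-147936767) had 148.0, 107.2, 123.0 and 126.3 CPM in the No operation group, 302.3, 229.2, 229.4 and 203.0 CPM in the SHAM group and 228.8, 213.7, 191.7 and 180.7 CPM in the Laminectomy group. It had the smallest rises of the 9 called genes, at log2 fold changes of 0.93 (SE 0.14, adjusted p = 0.000198, edgeR) in SHAM and 0.69 (SE 0.14, adjusted p = 0.00159, edgeR) in Laminectomy. SHAM mouse 1 was the highest of all, and without it the SHAM value was 0.81.

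Plod2 (gene ID 26432, chr9:92542223-92608428) had 93.18, 58.69, 69.54 and 40.1 CPM in the No operation group, 175.3, 161.2, 165.1 and 158.7 CPM in the SHAM group and 287.4, 224.9, 206.3 and 188.5 CPM in the Laminectomy group. The 3 groups did not overlap one another, with Laminectomy highest. Between Laminectomy and SHAM, 10.1% of tested genes had no overlap in either direction, and Plod2 was not called there (adjusted p = 0.325, edgeR). Plod2 was 2.53-fold higher in SHAM (log2 fold change 1.34, SE 0.22, adjusted p = 0.000303, edgeR) and 3.47-fold higher in Laminectomy (1.79, SE 0.22, adjusted p = 5.89e-05, edgeR).

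Plod3, which also carries glycosyltransferase activity (gene ID 26433, chr5:136987019-136996648), had 119.6, 73.11, 93.52 and 77.18 CPM in the No operation group, 212.0, 171.5, 187.7 and 174.7 CPM in the SHAM group and 260.3, 166.7, 152.5 and 144.3 CPM in the Laminectomy group. The unoperated mice lay below the rest and the surgical groups overlapped. The log2 fold changes were 1.04 (SE 0.21, adjusted p = 0.00108, edgeR) in SHAM and 0.99 (SE 0.21, adjusted p = 0.00156, edgeR) in Laminectomy. Exons of Plod3 share 529 bases with Znhit1 on the opposite strand, those of Fkbp10 share 193 bases with Nt5c3b, and those of Plod2 share 346 bases with Gm38391, which the table does not list. The library kit keeps strand, but by the study's methods counting was at the default settings of featureCounts, which do not use it, although those settings do not give the fractional values in the table. The counting mode is therefore uncertain, and reads of these stretches cannot be assigned with certainty.

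Serpinh1, the collagen-specific chaperone HSP47, binds the folded triple helix. Serpinh1 (gene ID 12406, chr7:99345376-99353239) had 667.4, 452.9, 544.6 and 445.0 CPM in the No operation group, 1240, 1697, 1511 and 1440 CPM in the SHAM group and 1933, 1577, 1409 and 1533 CPM in the Laminectomy group. All surgical mice stood well above all unoperated mice. The rise was 2.79-fold in SHAM (log2 fold change 1.48, SE 0.17, adjusted p = 3.41e-05, edgeR) and 3.06-fold in Laminectomy (1.61, SE 0.17, adjusted p = 2.68e-05, edgeR).

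Fkbp10, a peptidyl-prolyl isomerase that works with Plod2 on telopeptide lysines (gene ID 14230, chr11:100415697-100424824), had 95.94, 66.19, 73.33 and 39.39 CPM in the No operation group, 257.3, 301.1, 296.2 and 282.1 CPM in the SHAM group and 406.5, 316.7, 257.5 and 259.8 CPM in the Laminectomy group. The lowest surgical mouse was more than 2 times the highest unoperated mouse. The rise was 4.14-fold in SHAM (log2 fold change 2.05, SE 0.24, adjusted p = 3.51e-05, edgeR) and 4.51-fold in Laminectomy (2.17, SE 0.24, adjusted p = 3.24e-05, edgeR). The start of Fkbp10 lies 861 bases from that of P3h4, transcribed in the opposite direction.

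Crtap, which holds prolyl 3-hydroxylase 1 and cyclophilin B in a complex (gene ID 56693, chr9:114375134-114390675), had 60.86, 59.7, 76.13 and 55.31 CPM in the No operation group, 164.8, 185.0, 147.3 and 135.5 CPM in the SHAM group and 175.3, 143.1, 132.7 and 149.5 CPM in the Laminectomy group. The surgical groups overlapped and both lay above No operation. Log2 fold changes were 1.33 (SE 0.14, adjusted p = 1.53e-05, edgeR) and 1.25 (SE 0.14, adjusted p = 2.7e-05, edgeR).

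Laminectomy and SHAM were compared directly to ask what removing the laminae adds. None of the 10 genes was called (0 of 10, edgeR), and over all 14765 tested genes the count was also 0 (0%). At an unadjusted p below 0.05, 0 of the 10 genes and 2359 genes in all (16%) passed, and DESeq2 called 0 of the 10 genes and 696 genes in all. The median log2 fold change of the 10 genes was -0.0309, beside 0.00372 over all genes, and it was -0.153 to 0.0297 with 1 mouse left out. Plod2 was the single gene whose mice did not overlap between the groups, with Laminectomy higher, a pattern in either direction found in 10.1% of tested genes. Its log2 fold change was 0.46 (95% interval -0.01 to 0.93, adjusted p = 0.325, edgeR). P4ha2 had the most negative value, at -0.41 (SE 0.26, adjusted p = 0.461, edgeR), and its mice overlapped. Without SHAM mouse 1, Plod2 was at 0.49 and P4ha2 at -0.26.

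Levels of different genes were compared per kilobase of exon. In unoperated tissue Serpinh1 was first at 215.9 ± 42.4 CPM per kilobase (SD, n = 4), followed by P4hb at 168.0 ± 40.1, and these overlapped. P4ha1 (37.98 ± 9.76), Crtap (35.55 ± 5.12), Fkbp10 (23.41 ± 7.94), Plod3 (20.1 ± 4.67), Plod1 (18.65 ± 2.48), Plod2 (12.12 ± 4.11), P4ha2 (8.52 ± 3.10) and P4ha3 (4.33 ± 4.62) came next, each overlapping its neighbour in that order except for the gap below P4hb. In SHAM the order began with Serpinh1 (602.5 ± 77.2), P4hb (386.0 ± 20.04) and Fkbp10 (96.82 ± 6.70), and ended with P4ha2 (23.5 ± 5.58). In Laminectomy it began with the same genes and ended with P4ha2 (17.74 ± 3.91). Plod2 was in place 8 in No operation and SHAM and in place 5 in Laminectomy, where its values overlapped those of P4ha1 below it.

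The share of each alpha subunit in the sum of the 3, per kilobase of exon, does not depend on library scaling. P4ha3 made up 20.76, 3.70, 5.74 and 2.79% in No operation mice, 15.83, 28.79, 28.66 and 26.69% in SHAM mice and 23.94, 30.32, 30.1 and 33.58% in Laminectomy mice. Laminectomy did not overlap No operation, whereas SHAM did, because No operation mouse 1 lay above SHAM mouse 1. P4ha1 made up 75.0 ± 12.6% (SD, n = 4) of the sum in No operation, 51.1 ± 5.68% in SHAM and 49.5 ± 3.48% in Laminectomy. The difference between Laminectomy and No operation was 21.2 percentage points for the P4ha3 share and -25.5 for the P4ha1 share (two-sided exact permutation p = 0.0286 for each, the smallest that 4 mice against 4 allow, adjusted p = 0.0857 over 21 tests). No share or ratio passed the adjusted threshold.

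Plod2 made up 26.33, 25.36, 24.91 and 17.22% of Plod transcripts per kilobase in No operation mice, 26.2, 29.38, 28.86 and 30.0% in SHAM mice and 36.83, 37.86, 38.14 and 37.34% in Laminectomy mice. The Laminectomy mice were tightly grouped above all others, while SHAM overlapped No operation. The difference between Laminectomy and SHAM was 8.93 percentage points (two-sided exact permutation p = 0.0286, adjusted p = 0.0857, higher in 4 of 4 mice), and it was 8.12 without SHAM mouse 1. Plod1 made up 37.2 ± 4.31% (SD, n = 4) of Plod transcripts in No operation, 33.0 ± 2.31% in SHAM and 27.2 ± 2.56% in Laminectomy. The log2 ratio of P4hb to the sum of the alpha subunits was 1.72 ± 0.39 in No operation, 2.00 ± 0.30 in SHAM and 2.18 ± 0.03 in Laminectomy, again with adjusted p = 0.0857 (exact permutation) for Laminectomy against No operation.

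**Figure D2:**
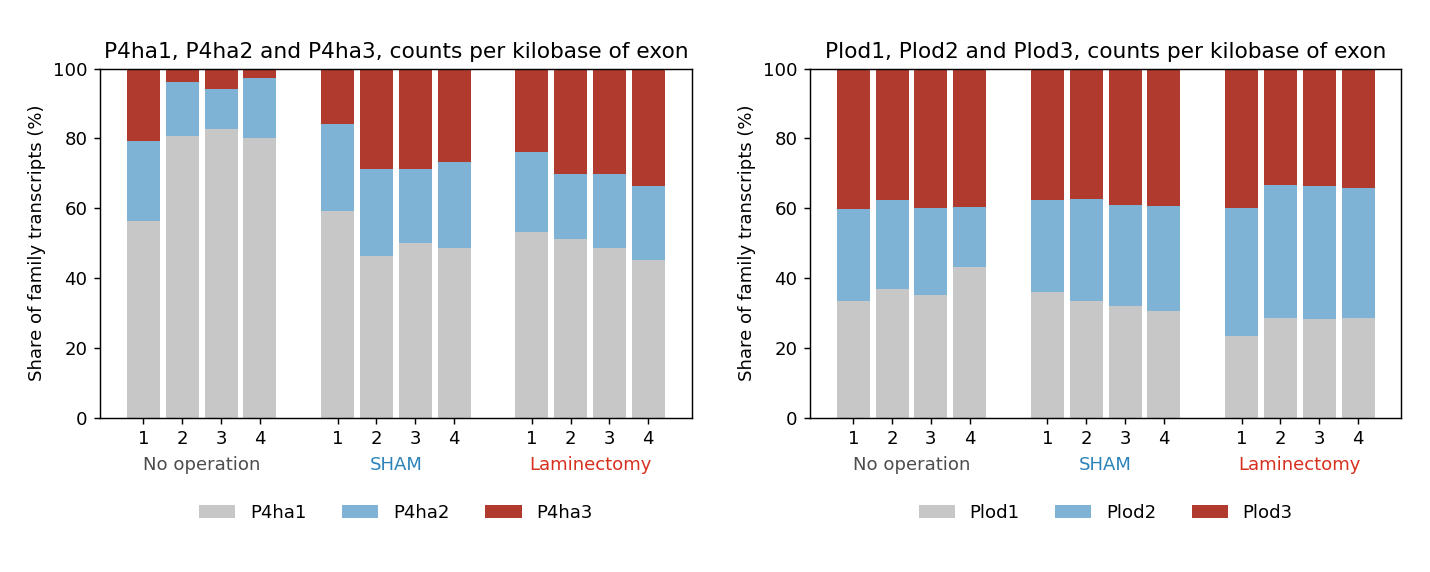
Shares (percent of the summed counts per kilobase of exon) of P4ha1, P4ha2 and P4ha3, left, and of Plod1, Plod2 and Plod3, right, with 1 stacked bar per mouse. The Plod2 share is 36.83 to 38.14% in Laminectomy mice and at most 30.0% in the others.

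Collagen chains, the substrates of these enzymes, were counted over 17 genes. Of them 13 were called higher and 0 lower in SHAM, and 14 higher and 0 lower in Laminectomy, with medians of 1.31 and 1.65. Col1a1 and Col3a1, the highest in mean CPM over all 12 mice though Col1a2 was above Col3a1 in No operation and Laminectomy, had log2 fold changes of 1.81 (SE 0.43) and 2.84 (SE 0.62) in SHAM and 1.91 (SE 0.43) and 2.17 (SE 0.60) in Laminectomy. With all mice Col5a1 rose most in Laminectomy, at 2.52 (SE 0.44), and Col15a1 was at 0.08 (SE 0.22). The 10 enzyme and chaperone genes summed to 6.68, 4.91, 8.82 and 15.3% of the CPM of the 17 chains in No operation mice, 4.71, 5.79, 4.9 and 5.56% in SHAM mice and 6.72, 5.07, 5.27 and 5.92% in Laminectomy mice. The ranges overlapped, and the highest value came from No operation mouse 4, whose chains summed to 9228 CPM against 19450 or more in the other mice. Without No operation mouse 1, Col3a1 was at 4.03 (SE 0.33) in SHAM and 3.35 (SE 0.31) in Laminectomy, and Col5a1 was at 3.26 (SE 0.25) in Laminectomy, below Col3a1. With 1 mouse left out, 11 to 14 chains were called higher in SHAM and 14 or 15 in Laminectomy.

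A list of prolyl 3-hydroxylation and collagen glycosylation genes also held the isomerases Fkbp7, Fkbp9 and Fkbp14, and Tmem38b. Of its 11 genes, 8 were called higher and 3 lower in SHAM, and 7 higher and 3 lower in Laminectomy, with medians of 0.90 and 0.97. P3h1, the 3-hydroxylase bound by Crtap, rose by log2 fold changes of 1.51 (SE 0.17) and 1.65 (SE 0.17), and Ppib, cyclophilin B, by 1.42 (SE 0.12) and 1.45 (SE 0.12). The isomerase Fkbp9 was at 0.58 (SE 0.13) in SHAM and, not called, at 0.46 (SE 0.13) in Laminectomy; it was not called in SHAM without No operation mouse 4 (0.49) and was called in Laminectomy without No operation mouse 3 (0.60). The galactosyltransferase Colgalt2 was lower at -2.22 (SE 0.22) and -1.62 (SE 0.21), whereas Colgalt1 was higher at 1.05 (SE 0.14) and 0.95 (SE 0.14). The other lower genes were P3h2, at -1.41 (SE 0.25) and -1.14 (SE 0.24), and Tmem38b, an ER cation channel, at -1.31 (SE 0.28) and -1.13 (SE 0.27). Colgalt1, P3h2 and Tmem38b were named after their values were seen.

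General ER chaperones moved in the same direction, with 10 of 13 called higher in SHAM and 9 in Laminectomy and 0 lower in either, at medians of 0.84 and 0.76. Calr was at 0.94 (SE 0.20) and 1.00 (SE 0.20), Hspa5 (BiP) at 0.59 (SE 0.20) and 0.74 (SE 0.20), and Pdia4 at 1.19 (SE 0.19) and 1.32 (SE 0.19). Hspa5 was no longer called in SHAM without No operation mouse 2, 3 or 4 (0.50, 0.55 and 0.54) or without SHAM mouse 1 or 3 (0.51 and 0.56). The stress transcription factor Xbp1 was not called, at 0.16 (SE 0.13) and -0.01 (SE 0.13). Procollagen export genes gave 3 of 12 higher and 2 lower in SHAM and 4 higher and 1 lower in Laminectomy. Over all tested genes 25.7% were higher and 25.1% lower in SHAM, and 24.2% and 24.4% in Laminectomy, so the shares called higher were near those of all genes. The list was at medians of 0.0142 and 0.0021. With 1 mouse left out, the medians ranged from -0.0432 to 0.0754 in SHAM and from -0.0399 to 0.0369 in Laminectomy. Creb3l1, a transcription factor that drives collagen secretion genes, was at 2.02 (SE 0.26) and 1.93 (SE 0.26), and the coat component Sec31a at 0.51 (SE 0.18) and 0.62 (SE 0.18). Sec31a was not called in SHAM without No operation mouse 2 or 4 (0.46 and 0.41) or SHAM mouse 3 or 4 (0.46 and 0.47). The small GTPase Sar1b, a part of the same coat, was lower at -2.85 (SE 0.18) and -2.70 (SE 0.18), while its paralogue Sar1a was not called, at 0.12 (SE 0.09) and 0.11 (SE 0.09).

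The HIF hydroxylases use the same cofactors as the collagen hydroxylases but act on hypoxia-inducible factor. Of 5 genes, 0 were higher and 4 lower in each comparison (edgeR and DESeq2 alike, 4 at an unadjusted p below 0.05), with medians of -1.25 and -1.39. Over all tested genes, 25.7% were called higher and 25.1% lower in SHAM, and 24.2% and 24.4% in Laminectomy. Egln1 was at -1.27 (SE 0.20) and -1.69 (SE 0.20), Hif1an at -1.65 (SE 0.14) and -1.46 (SE 0.14), and Egln2 at -0.76 (SE 0.13) and -0.98 (SE 0.13). Hypoxia-inducible genes gave 5 of 12 higher and 3 lower in SHAM, where the part called lower was near that of all genes. In Laminectomy they gave 0 higher and 5 lower (edgeR, 7 at an unadjusted p below 0.05), or 1 higher and 5 lower with DESeq2. With library size alone as scaling, 1 was higher and 3 lower in Laminectomy, and their median there was -0.0895 in place of -0.42, beside 0.328 over all genes. Their median in SHAM was 0.42 with all mice and 0.17 without SHAM mouse 1, when 4 were higher and 4 lower. In Laminectomy 2 were higher and 6 lower without SHAM mouse 1, 1 was higher and 5 lower without SHAM mouse 3, and 1 was higher and 4 lower without No operation mouse 1 or Laminectomy mouse 3. Slc2a1, a glucose transporter, had 250.4 CPM in SHAM mouse 1 against 79.97, 64.45 and 71.42 CPM in the other SHAM mice, and was at 2.31 (SE 0.47) in SHAM and 1.61 (SE 0.31) there without that mouse. In Laminectomy Slc2a1 was at 1.13 and not called, but was called without SHAM mouse 1 or 3 (1.14 and 1.13), No operation mouse 1 (1.34) or Laminectomy mouse 3 (1.27). Vegfa was lower at -1.27 (SE 0.35) and -2.38 (SE 0.36), and Pfkfb3 was at -0.74 (SE 0.33), not called, and -1.81 (SE 0.34). Pfkfb3 was called in SHAM without SHAM mouse 1 (-1.21) or No operation mouse 1 (-0.91). In Laminectomy against SHAM all 12 genes had negative values and 0 were called (edgeR). At an unadjusted p below 0.05, 9 passed (edgeR), where 16% of all tested genes did, and DESeq2 called 4 lower. The median there was -1.06, and -0.48 without SHAM mouse 1.

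**Figure D3:**
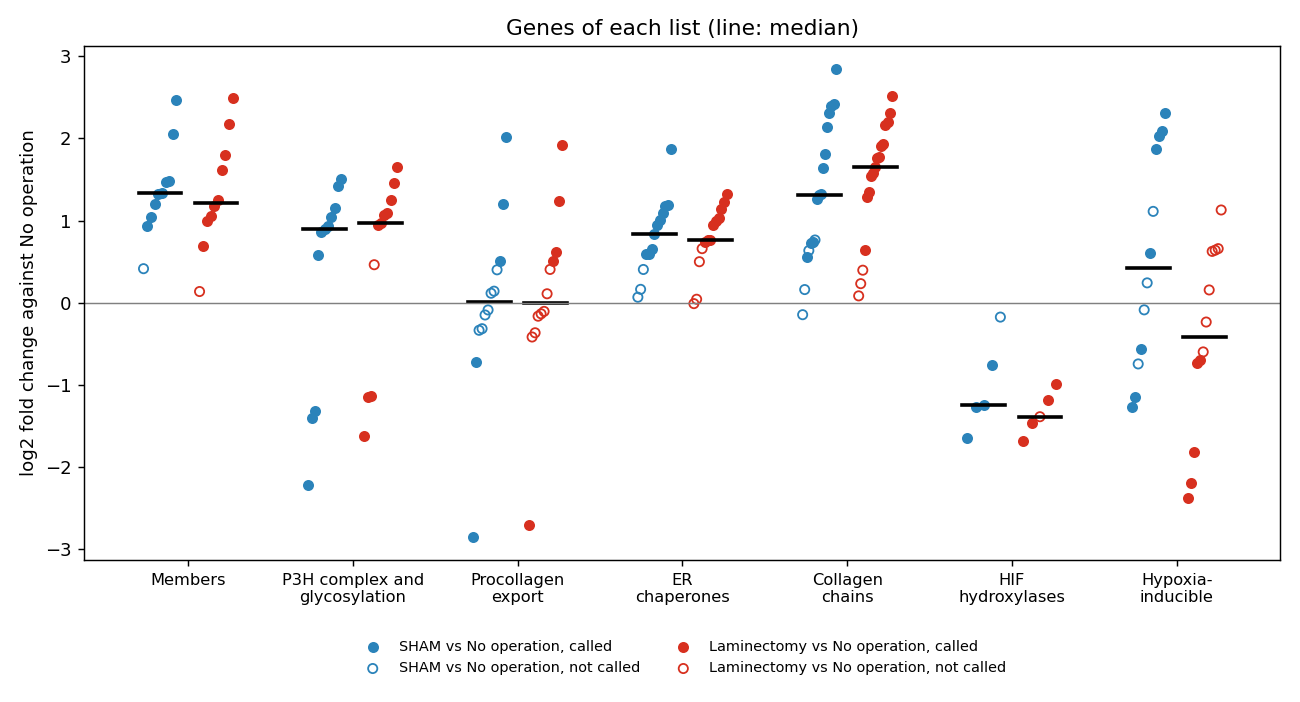
Log2 fold changes against No operation of the genes in each list, with filled points for called genes, open points for genes not called and a line at the median. The 10 enzyme and chaperone genes lie above 0 in both comparisons, with medians of 1.33 and 1.22, and with TMM scaling the 5 HIF hydroxylases lie below 0.

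Cell type markers also differed between the groups. All 8 skeletal muscle markers were lower in both comparisons. Their sum was 98540, 94070, 112300 and 131500 CPM in the No operation group, 2266, 6084, 8439 and 8876 CPM in the SHAM group and 3084, 12910, 11140 and 9911 CPM in the Laminectomy group, with Myh4 the most abundant by mean in No operation and Acta1 in both surgical groups. Muscle transcripts filled a far larger part of the unoperated libraries. Of 8 fibroblast markers, 4 were higher and 1 lower in SHAM, and 4 higher and 2 lower in Laminectomy, and none was at 0 in any mouse. Without No operation mouse 3 or SHAM mouse 2, 3 or 4, 0 fibroblast markers were lower in SHAM (edgeR, with 4 or 5 of 8 at an unadjusted p below 0.05; DESeq2 with all mice called 1). Their sum was 5780, 4196, 6640 and 3937 CPM in the No operation group, 7391, 6998, 7570 and 7066 CPM in the SHAM group and 5498, 6925, 8261 and 7444 CPM in the Laminectomy group. Dcn was the most abundant in No operation and Postn in both surgical groups. Macrophage markers were higher, 6 of 6 in SHAM and 5 of 6 in Laminectomy, and summed to 1778, 1234, 1023 and 666.3 CPM in the No operation group, 7553, 4946, 4397 and 5070 CPM in the SHAM group and 5223, 3317, 3806 and 3228 CPM in the Laminectomy group, with Lyz2 the most abundant. The part of these cell types in the results was not tested.

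Bone and cartilage markers, whose cells also make collagen, differed among surgical mice. Bone markers summed to 1.45, 459.6, 129.7 and 3.86 CPM in the No operation group, 1.35, 108.8, 33.68 and 103.2 CPM in the SHAM group and 1634, 1549, 637.2 and 572.4 CPM in the Laminectomy group, with Ibsp the most abundant by mean and Bglap at 0 in some mice. Of the 5 bone markers 0 were called in any comparison, with 5 at an unadjusted p below 0.05 in Laminectomy against SHAM (edgeR), where DESeq2 called 0. There all 5 had positive values, at a median of 3.28. All 5 were without overlap between the groups, beside 10.1% of all tested genes, and 16% of all tested genes had an unadjusted p below 0.05 (edgeR). Without SHAM mouse 3, 2 of the bone markers were at an unadjusted p below 0.05 (edgeR), the fewest with any 1 mouse left out. Against No operation DESeq2 called 2 lower in SHAM and 1 higher in Laminectomy. With edgeR 3 bone markers were called lower in SHAM without No operation mouse 1, and 2 without No operation mouse 4 or SHAM mouse 4, while in Laminectomy 3 were called higher without No operation mouse 2 and 1 without SHAM mouse 1. Cartilage markers summed to 143.2, 607.8, 845.3 and 446.3 CPM in the No operation group, 12.14, 42.74, 126.4 and 57.06 CPM in the SHAM group and 418.1, 1027, 301.8 and 175.3 CPM in the Laminectomy group, with Chad the most abundant in No operation, Col2a1 by mean in Laminectomy and Matn1 at 0 in some mice. In SHAM the most abundant was Sox9 in mouse 1, Acan in mouse 2 and Col2a1 in mice 3 and 4. Of 5 tested, 1 was higher and 1 lower in SHAM and 2 higher and 1 lower in Laminectomy. In Laminectomy against SHAM all 5 cartilage markers had positive values, at a median of 2.11, with 0 called by edgeR, 5 at an unadjusted p below 0.05 and 4 called higher by DESeq2. These are the groups between which the Plod2 values did not overlap. Neutrophil markers gave 1 of 5 higher in SHAM and 0 in Laminectomy (edgeR, 1 at an unadjusted p below 0.05; DESeq2 called 1), with S100a9 the most abundant by mean. In Laminectomy 1 was higher without No operation mouse 2 or 4. Of 3 tendon markers (Tnmd the most abundant), 2 were lower in SHAM and 0 were called in Laminectomy (edgeR, 0 at an unadjusted p below 0.05; DESeq2 called 0). In SHAM 1 was lower without SHAM mouse 1 or 4, and 0 without No operation mouse 3 or SHAM mouse 2 (edgeR, 1 and 2 at an unadjusted p below 0.05), while in Laminectomy 1 was lower without No operation mouse 1. Endothelial markers were lower for 2 of 4 in each (Pecam1 the most abundant; 0 and 1 with library size alone as scaling), and for 1 in SHAM without No operation mouse 4 or SHAM mouse 2 or 4. Adipocyte markers were lower for 3 and 4 of 4 (Cfd the most abundant by mean), and for 1 in SHAM without SHAM mouse 1 or 4. They summed to 1289 CPM in SHAM mouse 3, against 180.9, 30.71 and 64.64 CPM in SHAM mice 1, 2 and 4. No operation mice had 1200, 2203, 1778 and 1970 CPM. Without SHAM mouse 3, 4 adipocyte markers were lower in SHAM. Neural markers summed to 59.2, 98.49, 75.27 and 88.18 CPM in the No operation group, 146.8, 40.12, 96.44 and 38.22 CPM in the SHAM group and 40.13, 762.0, 207.7 and 30.5 CPM in the Laminectomy group, where mice 2 and 3 were high (Mbp the most abundant, with Mobp and Snap25 at 0 in some mice). Of 3 tested, 0 were called in SHAM (edgeR, 0 at an unadjusted p below 0.05; DESeq2 called 0) and 1 was higher in Laminectomy, or 2 without Laminectomy mouse 1, while DESeq2, which tested 5, called 3 higher in Laminectomy. The gene called by edgeR with all mice was Gfap, named after its values were seen, at 1.376, 52.75, 18.08 and 0.2607 CPM in Laminectomy mice. Their part in the results was not tested.

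Likeness of profile was measured as the root mean square difference of centred log2 CPM over the 12 mice, as a description. The nearest gene was Txndc5 for P4hb (0.09), Emilin1 for Fkbp10 (0.09), Kdelr2 for Serpinh1 (0.10), Commd10 for Plod1 (0.11), P3h3 for Crtap (0.12), Calr for Plod3 (0.13), Loxl3 for Plod2 (0.16), Aebp1 for P4ha1 (0.19), Layn for P4ha2 (0.21) and Bcat1 for P4ha3 (0.33). None of these nearest genes was another of the 10. Nearest to the mean of the 10 profiles were Pofut2, Kdelr2 and Praf2, at 0.12, 0.12 and 0.13.

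Promoter windows, the 250 bases before the annotated start (RefSeq, GRCm38.p6), were found for 8 of the 10 genes, without Plod2 and Fkbp10. The motif ACGTG, the core letters of the hypoxia response element, was searched on both strands and found in 5 of the 8 windows, and in 16.6% of 32851 windows of all genes. GGGCGG, the core of the GC box, was found in 6 of the 8 and in 32.7% of all windows. For P4ha2 the RefSeq start lies inside the GENCODE gene given above, and so does its window. The motifs were chosen after counts in these promoters had been seen, and a match is only a match of letters. The windows of the alpha subunit genes are shown because P4ha1 was not called while P4ha2 and P4ha3 rose, all on the plus strand, at chr10:59323046-59323295, chr11:54100674-54100923 and chr7:100285270-100285519. Capitals mark ACGTG or its reverse complement, present 1 time in P4ha1 and P4ha2 and 0 times in P4ha3.
P4ha1: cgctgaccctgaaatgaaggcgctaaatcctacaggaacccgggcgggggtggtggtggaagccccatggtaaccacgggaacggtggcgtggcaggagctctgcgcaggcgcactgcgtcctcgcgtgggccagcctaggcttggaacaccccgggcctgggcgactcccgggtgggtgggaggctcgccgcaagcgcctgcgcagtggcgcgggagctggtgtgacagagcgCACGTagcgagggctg
P4ha2: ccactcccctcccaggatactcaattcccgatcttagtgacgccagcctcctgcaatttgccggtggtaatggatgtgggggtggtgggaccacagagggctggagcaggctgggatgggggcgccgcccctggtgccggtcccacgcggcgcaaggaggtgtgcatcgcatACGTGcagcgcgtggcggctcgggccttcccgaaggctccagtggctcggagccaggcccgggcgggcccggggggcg
P4ha3: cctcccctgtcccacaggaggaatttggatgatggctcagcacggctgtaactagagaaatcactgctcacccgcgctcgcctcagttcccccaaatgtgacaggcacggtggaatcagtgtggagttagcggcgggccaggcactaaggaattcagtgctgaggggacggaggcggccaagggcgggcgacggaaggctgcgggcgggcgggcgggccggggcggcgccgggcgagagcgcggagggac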

How the data were processed

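Per the submitters' processing notes, reads were handled with STAR 2.6.1b, featureCounts 2.0.1 (default settings per the study's methods) and DESeq2 1.30.1 on GRCm38. The authors deposited a table of unnormalised counts per gene. In it 10.2% of values were not whole, so the deposited values were treated as estimated counts (expected counts) and rounded to whole numbers, which touched 2 of the 10 genes (19 values). The planned design had assumed whole counts. How fractional values arose is not given in the sources used here. The paper gives 3 mice per group. The submitters' design notes describe selecting 3 of each group for the tests, without naming them. Here all 4 are included.

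Counts of all 12 mice were fitted in 1 model with edgeR 4.0.16 (R 4.3.3; filterByExpr, TMM scaling, quasi-likelihood test with group as the only term), and p-values were adjusted over 14765 genes. Calls needed an adjusted p under 0.05 together with a log2 change beyond 0.5 in size. The biological coefficient of variation was 28.3%. The steps were tested on simulated data. Alternatives included DESeq2 1.42.0, other scaling and filters, a replicate block and leaving out each mouse. Results of the lists and listed genes without each mouse, with other scaling and with DESeq2 were added after seeing the data. Shares and ratios used counts per kilobase of merged exons (GENCODE M21) and exact permutation tests (scipy 1.17.1).

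The 10 genes and all lists were chosen with earlier results of these data known. Named genes were the 10, from each pathway list the 2 with the highest mean CPM and the largest rise and fall in Laminectomy vs No operation, the nearest profiles, and the most abundant marker of each list with any at 0. Ero1a was matched as Ero1l.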

Additional observations from a re-analysis of the deposited data

Results flagged for a closer look

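In 51 groups of 4 values, covering the CPM of the 10 genes and the shares and ratio, 7 held a mouse far from the other 3, and chance gives about 1 in 20. None was a CPM value. Shares of 1 enzyme family add up to a fixed total in each mouse, so the groups are not independent. The flags of No operation mouse 1, and those of Laminectomy mouse 1, can each be the same event counted again. No operation mouse 1 had a P4ha1 share of 56.2%, against 80.26, 80.76 and 82.84% in its group, and a P4ha3 share of 20.76%, against 2.79, 3.70 and 5.74%. SHAM mouse 1 had a P4ha3 share of 15.83%, against 26.69, 28.66 and 28.79%, and SHAM mouse 3 a P4ha2 share of 21.29%, against 24.59, 24.88 and 24.89%. Laminectomy mouse 1 had a Plod1 share of 23.37%, against 28.24, 28.54 and 28.67%, and a Plod3 share of 39.8%, against 33.47, 33.62 and 34.12%. No operation mouse 4 had a Plod2 share of 17.22%, against 24.91, 25.36 and 26.33%.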

How the results depend on the processing

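The counts of called genes among the 10 stayed within 1.5 times of 9, 9 and 0 under all 21 alternatives. They ranged from 8 to 10 in SHAM against No operation and from 7 to 9 in Laminectomy against No operation. With a minimum log2 fold change of 1, Plod1 was no longer called in either comparison nor Plod3 in Laminectomy, leaving 8 and 7 genes, and the counts over all genes fell from 7502 to 4589 and from 7183 to 4323, by construction. DESeq2 called 696 genes over the whole table in Laminectomy against SHAM where edgeR called 0; the cause was not tested.

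Reversed signs were those of values near 0 that were not called. With library size only, P4hb was at 0.0441 and Plod3 at 0.0166 in Laminectomy against SHAM. Leaving out 1 mouse at a time gave, in that comparison, -0.147 to 0.0429 for P4hb, -0.272 to 0.0499 for Plod3, -0.0553 to 0.158 for P4ha3, -0.159 to 0.00818 for Crtap and -0.0325 to 0.206 for Fkbp10, and in Laminectomy against No operation -0.0161 to 0.257 for P4ha1. The cause was not tested.

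The replicate number was also fitted as a replicate block, which gave 9, 9 and 0 called genes. Correlations of mice with the same number in different groups ran from -0.228 to 0.352 (median 0.14, 8 of 12 positive), and those of mice with different numbers from -0.454 to 0.346 (median -0.0436, 14 of 36 positive). The labels do not say whether the number pairs mice. With counts in place of counts per kilobase, no share or subunit ratio passed the adjusted threshold. With 1 mouse left out none could pass, because the smallest exact p then lies above the threshold even before adjustment. Directions were kept under both changes except for the P4ha1 share in Laminectomy against SHAM. That difference was -1.61 percentage points with all mice, -3.2 to 1.124 with 1 mouse left out, and positive without SHAM mouse 1. With 4 mice a group the smallest exact p was 0.0286, which limits what these tests can show.

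In Laminectomy against SHAM edgeR called 0 genes of every list, whereas DESeq2 called 4 hypoxia-inducible genes and 1 macrophage marker lower, 1 fibroblast marker in each direction, and 1 collagen chain, 4 cartilage markers and 2 neural markers higher. At an unadjusted p below 0.05 (edgeR), where 16% of all tested genes passed, these lists held 9, 4, 6, 2, 5 and 2 genes in the same order. Without Laminectomy mouse 2 they held 6, 2, 4, 1, 4 and 1, the fewest with any 1 mouse left out. With library size alone as scaling, the genes called lower in SHAM were 3 in place of 4 HIF hydroxylases, 2 in place of 3 hypoxia-inducible genes and adipocyte markers, 1 in place of 2 export genes and tendon markers, and 0 in place of 1 fibroblast marker. The numbers called higher in each list differed by at most 1 from those with TMM, including 3 in place of 2 cartilage markers and 1 in place of 0 neutrophil markers in Laminectomy. The cause was not tested.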
